A study of Homo sapiens with 18 samples.

Results

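The genes described here belong to the calcineurin, RCAN and NFAT axis, and PTGS2 was described with them. The 10 genes were taken by name as rows of the gene counts, with earlier results of these data known, and comprise 3 RCAN regulators (RCAN1, RCAN2, RCAN3), 3 catalytic calcineurin subunits (PPP3CA, PPP3CB, PPP3CC), a regulatory subunit (PPP3R1), 2 NFAT factors (NFATC1, NFATC3) and PTGS2. All 10 were among the 25435 rows of the table, and all 10 passed the filter on low counts in each comparison. The counts come from HEK293doxERN2 cells, a human embryonic kidney line that carries a FLAG-ERN2 transgene under doxycycline control in every group, the uninduced one included. Doxycycline was given for 24 hours at 0, 10 or 100 ng/mL, and at each dose 3 libraries came from cells with the DMSO vehicle and 3 from cells with 200 nM thapsigargin for 3 hours, which makes 18 libraries in 6 groups. Doxycycline without the transgene was not analysed here, so its own action and that of ERN2 cannot be told apart. In bulk RNA, fewer cells that express a gene and less of its RNA per cell cannot be told apart either.

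Calcineurin is a phosphatase that cytosolic calcium and calmodulin switch on. It consists of a catalytic subunit, encoded by PPP3CA, PPP3CB or PPP3CC, and a calcium-binding regulatory subunit, encoded by PPP3R1, and it removes phosphates from NFAT transcription factors so that they enter the nucleus. RCAN proteins bind calcineurin and can restrain it, and RCAN1 is itself a known target of NFAT, which closes a feedback loop. Thapsigargin blocks the SERCA pumps that fill the ER with calcium, so calcium leaks into the cytosol while the ER is under stress. PTGS2 encodes cyclooxygenase-2, the inducible enzyme of prostaglandin synthesis, and calcium, NFAT and stress signals are known to raise it in many cell types.

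The libraries held 14876416 to 24652240 counted reads, and the 10 genes together took only a small share of them, at most 0.10% in any library. In all 18 pairs of replicates the counts disagreed beyond sampling noise, and every library entered as its own sample. Levels are given as CPM, counts relative to library size with TMM scaling over all 18 libraries. ERN2, the induced gene, was measured first as a check of the labels, and in vehicle its means of 3 libraries were 7.92 ± 1.30, 35.7 ± 18.4 and 266 ± 36.1 CPM (SD) in order of dose. Of the 7 marker genes of HEK293 cells, 7 were at a mean of 1 CPM or more, and their sum was 1595 to 2666 CPM per library. Most of that sum was VIM, at a mean of 1800 CPM, and the others had means of 2.98 (PAX2) to 100 (INA) CPM. The extraction notes name colon crypts, but of 8 colon epithelial genes only CDX2, EPCAM and LGR5 reached a mean of 1 CPM, with sums of 20.6 to 60.1 CPM per library for the whole list, and MUC2, VIL1, CDX1, CDH17 and KRT20 did not. Of 4 blood cell genes 0 and of 3 endothelial genes 1 (VWF) reached it.

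PTGS2 lies on chromosome 1 (chr1:186671791-186680427, minus strand, GRCh38, GENCODE 29), overlaps no other annotated gene and has 1 start for its coding transcripts. Its proximal promoter is shown because PTGS2 was one of the 2 genes of the axis that rose with thapsigargin, and the window holds letters that NFAT and CREB factors are known to bind. The sequence covers the bases from 250 to 5 before the RefSeq start (chr1:186680428-186680673, minus strand, GRCh38.p14), printed 5′ to 3′ in the direction of transcription, and capitals mark the core NFAT motif GGAAA, read as TTTCC on the other strand, and the motif TGACG, the core of a cyclic AMP response element, read as CGTCA.
PTGS2 promoter: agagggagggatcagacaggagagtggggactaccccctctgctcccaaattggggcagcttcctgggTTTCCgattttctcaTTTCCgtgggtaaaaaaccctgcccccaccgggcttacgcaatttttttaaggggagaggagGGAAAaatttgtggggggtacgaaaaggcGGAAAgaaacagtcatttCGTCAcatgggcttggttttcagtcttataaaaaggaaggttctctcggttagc
GGAAA was found 4 times, on the strand of transcription at 105 and at 76 bases before the start and on the other strand at 182 and at 167, where each position is that of the first base of the match. TGACG was found once, on the other strand at 58, and TATAAA at 32, and no match overlapped another. Among 27305 RefSeq promoters of 250 bases, searched on both strands, 56.1% held GGAAA at least once, 1.95% held it 4 or more times, 21.1% held TGACG and 11.4% held TATAAA. A match is a run of letters and was not tested as a binding site.

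RCAN1 lies on chromosome 21 (chr21:34513142-34615142, minus strand) and overlaps no other annotated gene. GENCODE gives 10 start positions for its coding transcripts, spread over 90853 bases, and the counts add up reads from all of them, so the isoforms could not be told apart. The 250 bases before its RefSeq start, which is 1 of those 10 positions, held none of the 8 motifs searched, and this says nothing of the windows before the other starts. Beside the 3 above, these were the full cyclic AMP response element TGACGTCA (held by 1.73% of the promoters, and itself holding TGACG), the AP-1 site TGANTCA (6.84%), the amino acid response element TGATGNAAN (3.33%), the UPRE TGACGTGG (0.656%, and also holding TGACG) and the ERSE (0.0842%), which is known by that name as the ER stress response element. Of the 10 genes, 7 had a promoter in the RefSeq table, and GGAAA was found in those of PTGS2, PPP3R1 and NFATC1.

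Without doxycycline or thapsigargin, NFATC3 and PPP3R1 had the highest values of the axis. Both overlap other annotated genes to which some of their reads may belong, so their place is uncertain. Per kb of exon, a scale on which genes can be compared, PPP3R1 was at 24.6 ± 4.32 CPM per kb (SD, n = 3) and NFATC3 at 21.9 ± 0.793 (SD, n = 3), and these neighbours overlapped in their libraries. The catalytic subunits followed, PPP3CB at 15.8 ± 2.28 and PPP3CA at 14.2 ± 1.48 CPM per kb (SD, n = 3 each), which did not differ beyond their spread, with PPP3CC lower at 6.26 ± 0.330 (SD, n = 3). RCAN1 was at 8.10 ± 1.20 CPM per kb, RCAN3 at 5.18 ± 0.665 and RCAN2 at 2.54 ± 0.191 (SD, n = 3 each). NFATC1 was at 5.30 ± 0.537, level with RCAN3, and PTGS2 was the lowest of the 10 at 0.626 ± 0.0636 CPM per kb (SD, n = 3 each). Lengths are the union of exons in GENCODE 29, which can differ from the transcripts these cells use.

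**Figure D1:**
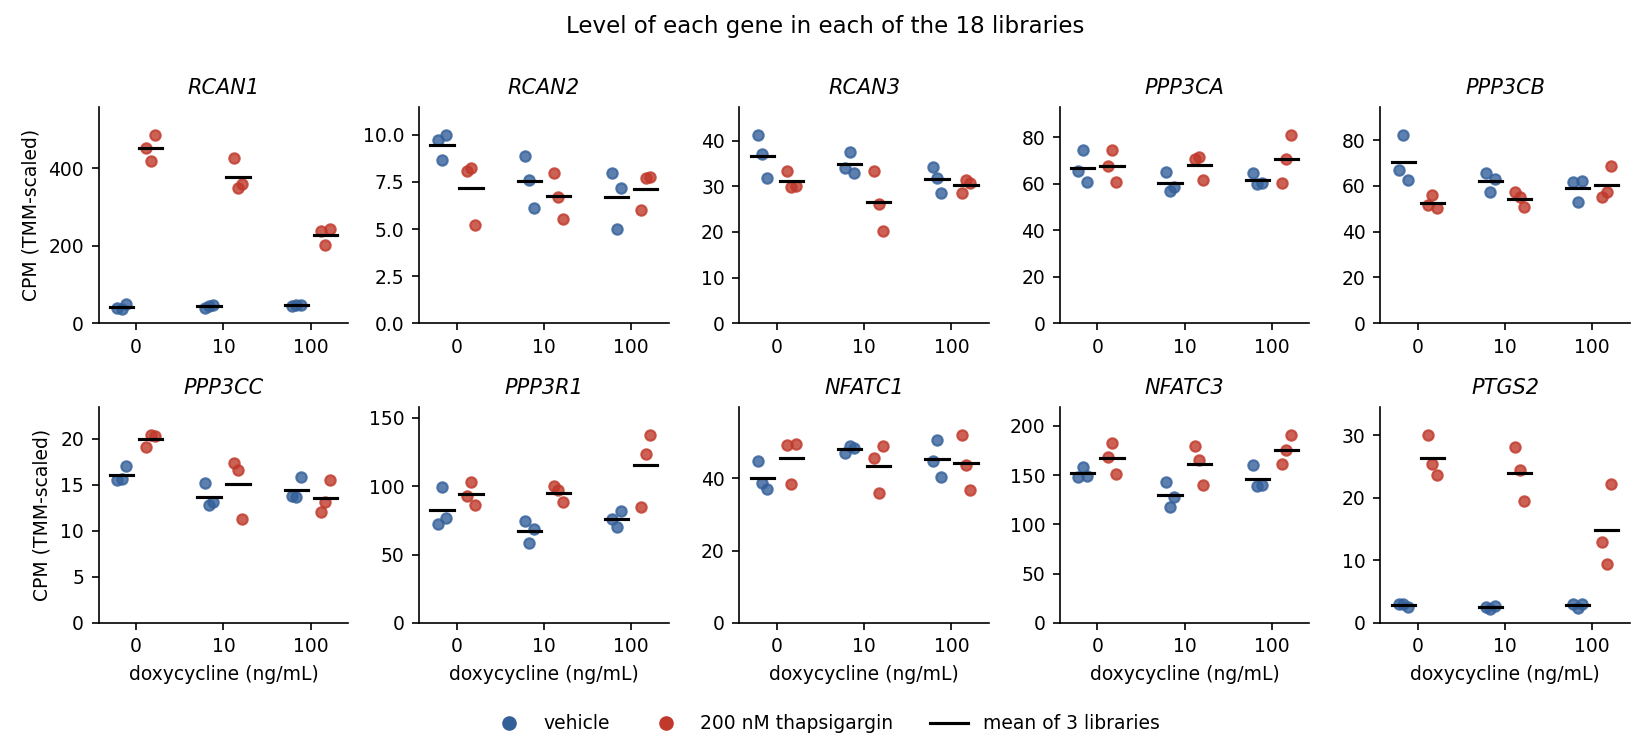
CPM (TMM-scaled, linear axis from 0) of each of the 10 genes in each of the 18 libraries, by dose of doxycycline (ng/mL), with vehicle in blue, 200 nM thapsigargin in red and the mean of 3 libraries as a bar. RCAN1 and PTGS2 are higher in each thapsigargin library than in any vehicle library, and both means are lowest at 100 ng/mL among the thapsigargin groups; the other 8 genes lie within narrower ranges.

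Thapsigargin raised RCAN1 and PTGS2 at each dose of doxycycline, and the other 8 genes of the axis did not pass the threshold, an edgeR adjusted p under 0.01. RCAN1 rose 11.0-fold without doxycycline, 8.75-fold at 10 ng/mL and 5.00-fold at 100 ng/mL, and PTGS2 rose 9.38-fold, 9.70-fold and 5.38-fold. So 2 of 10 genes were called higher in each of the 3 comparisons, where 6.45%, 1.16% and 0.18% of all genes tested were called higher, a count that describes genes chosen with results known. These 3 comparisons have separate control libraries.

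RCAN1 was at 38.3, 37.5 and 48.6 CPM in the vehicle libraries without doxycycline, at 40.3, 43.3 and 46.8 at 10 ng/mL and at 45.6, 47.7 and 47.5 at 100 ng/mL. With thapsigargin it was at 452, 419 and 486 CPM without doxycycline, at 428, 349 and 360 at 10 ng/mL and at 237, 201 and 244 at 100 ng/mL. Each thapsigargin library was therefore above each vehicle library, and among the thapsigargin libraries the 100 ng/mL group lay below the other two groups without overlap. Without doxycycline this was a log2 fold change of 3.46 (SE 0.129, edgeR adjusted p = 1.78e-09, higher in 3 of 3 libraries), which ranked 5 from the top among 14397 genes. It was 3.13 at 10 ng/mL (SE 0.131, adjusted p = 9.32e-07) and 2.32 at 100 ng/mL (SE 0.133, adjusted p = 2.99e-05), with ranks of 7 and 8 from the top. All 3 calls held under all 6 other settings of the fit and with each library left out in turn.

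PTGS2 was much less abundant, with 43 to 60 reads in each of the 9 vehicle libraries. In CPM these libraries were at 2.95, 3.03 and 2.50 without doxycycline, at 2.56, 2.16 and 2.70 at 10 ng/mL and at 3.06, 2.42 and 3.08 at 100 ng/mL. With thapsigargin PTGS2 was at 30.1, 25.4 and 23.7 CPM without doxycycline, at 28.1, 24.4 and 19.5 at 10 ng/mL and at 12.9, 9.41 and 22.1 at 100 ng/mL. The groups with and without the drug did not overlap at any dose, and replicate 3 at 100 ng/mL, the highest of its group, lay above the lowest library at 10 ng/mL. PTGS2 had a log2 fold change of 3.23 without doxycycline (SE 0.167, adjusted p = 6.59e-08), 3.28 at 10 ng/mL (SE 0.193, adjusted p = 1.65e-05) and 2.43 at 100 ng/mL (SE 0.311, adjusted p = 0.00889), with ranks of 6, 6 and 7 from the top. The call at 100 ng/mL passed in 2 of 6 leave-one-out fits, with adjusted p from 9.11e-05 to 0.0475 and log2 fold changes from 2.02 to 2.66. It was lost without replicate 1 (0.0412), 2 (0.0298) or 3 (0.0475) of the vehicle libraries or replicate 2 (0.0186) of the thapsigargin libraries at 100 ng/mL. A fit that kept the replicate number as a block lost it as well, with 0.0277% of all genes called.

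The other RCAN genes did not move with RCAN1. RCAN2 was at 8.64 to 9.98 CPM in vehicle and 5.19 to 8.26 in thapsigargin without doxycycline, groups that did not overlap, with a log2 fold change of -0.38 (95% interval -0.79 to 0.03, adjusted p = 0.169). At 10 and 100 ng/mL its log2 fold changes were -0.15 (adjusted p = 0.67) and 0.14 (adjusted p = 0.724). RCAN3 was at 31.8 to 41.2 CPM in vehicle and 29.8 to 33.3 in thapsigargin without doxycycline, with log2 fold changes of -0.23, -0.39 and -0.01 at 0, 10 and 100 ng/mL (adjusted p = 0.215, 0.208 and 0.958). Part of RCAN3 overlaps AL445686.2, a noncoding gene on the opposite strand, and whether the counting used strand is not given in the sources used here.

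None of the catalytic subunits of calcineurin passed the threshold. PPP3CA, the alpha isoform, had log2 fold changes for thapsigargin of 0.03, 0.18 and 0.24 at 0, 10 and 100 ng/mL (adjusted p = 0.894, 0.366 and 0.31). PPP3CB, which encodes the beta isoform, was at 67.1, 82.2 and 62.7 CPM in vehicle and 51.6, 55.9 and 50.2 in thapsigargin without doxycycline. Its groups did not overlap, with a log2 fold change of -0.41 (95% interval -0.69 to -0.14, adjusted p = 0.0301). At 10 ng/mL, where its groups did not overlap either, and at 100 ng/mL the values were -0.18 (adjusted p = 0.356) and 0.08 (adjusted p = 0.757). PPP3CC was at 15.5 to 17.0 CPM in vehicle and 19.0 to 20.4 in thapsigargin without doxycycline, again without overlap, for a log2 fold change of 0.32 (95% interval 0.05 to 0.60, adjusted p = 0.0821). At 10 and 100 ng/mL its values were 0.14 (adjusted p = 0.652) and -0.04 (adjusted p = 0.892). Without doxycycline 40% of all genes tested had groups that did not overlap, so the absence of overlap at RCAN2, PPP3CB and PPP3CC was common among genes in that comparison. At 10 ng/mL the figure was 28.3%.

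PPP3R1, the calcium-binding regulatory subunit, had positive log2 fold changes at each dose, 0.20 (adjusted p = 0.311) without doxycycline, 0.51 (95% interval 0.23 to 0.78, adjusted p = 0.037) at 10 ng/mL and 0.65 (95% interval 0.24 to 1.06, adjusted p = 0.0788) at 100 ng/mL, none past the threshold. At 100 ng/mL it was at 76.0, 70.3 and 81.9 CPM in vehicle and at 85.0, 123 and 138 in thapsigargin, so the groups did not overlap, as was the case for 25.8% of all genes tested. Without replicate 1 of those thapsigargin libraries, the lowest, the log2 fold change was 0.81 and passed the threshold (adjusted p = 0.000816), while in the other 5 leave-one-out fits it was 0.50 to 0.71 and did not pass. At 10 ng/mL, where 7.8% of all genes were called by DESeq2, that tool called PPP3R1 higher (log2 fold change 0.50, adjusted p = 0.00414). The annotation places AC017083.3, another protein-coding gene on the same strand, over the whole of PPP3R1, so the reads of the pair cannot be told apart and its values are uncertain.

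The NFAT factors, which calcineurin switches on by dephosphorylation rather than through their mRNA, did not pass the threshold at any dose. NFATC1 was at 37.1 to 44.8 CPM in vehicle and 38.4 to 49.5 in thapsigargin without doxycycline, and its log2 fold changes were 0.20, -0.14 and 0.01 at 0, 10 and 100 ng/mL (adjusted p = 0.31, 0.564 and 0.969). At 100 ng/mL the sign of NFATC1 turned to -0.054 with library totals alone as the scaling. NFATC3, the more abundant, was at 148 to 158 CPM in vehicle and 151 to 182 in thapsigargin without doxycycline, with log2 fold changes of 0.15, 0.32 and 0.31 (adjusted p = 0.322, 0.152 and 0.167). NFATC3 overlaps 10 other annotated genes, 5 of them on the opposite strand, so some of its reads may belong to them.

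**Figure D2:**
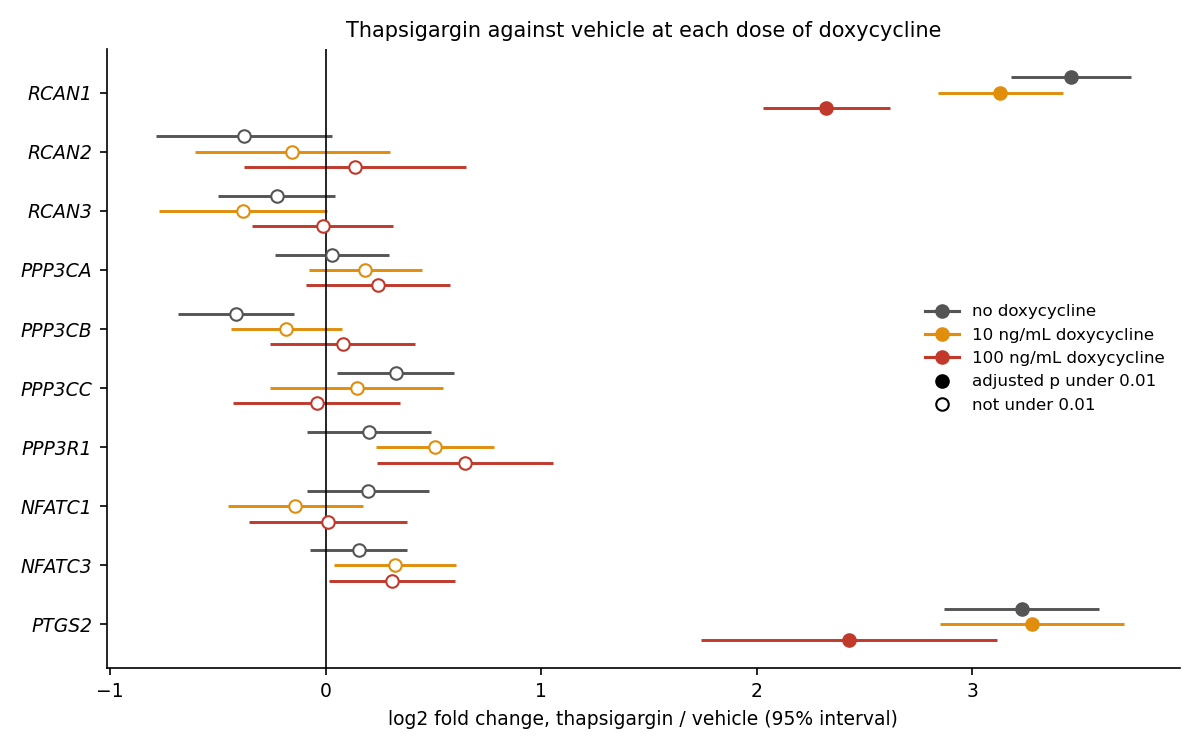
Log2 fold change of thapsigargin over vehicle (x axis, with 95% intervals) for each of the 10 genes at 0, 10 and 100 ng/mL doxycycline, from edgeR with 3 libraries a group. Filled points have an adjusted p under 0.01, and these are RCAN1 (3.46, 3.13 and 2.32) and PTGS2 (3.23, 3.28 and 2.43) at each dose.

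With RCAN1 alone among the RCAN genes past the threshold, the make-up of the family differed between treatments. RCAN1 held 51.1% ± 5.20 (SD, n = 3) of the summed RCAN level per kb of exon in vehicle without doxycycline and 93.3% ± 0.951 (SD, n = 3) with thapsigargin. At 10 ng/mL the shares were 55.0% ± 3.70 and 93.1% ± 0.981, and at 100 ng/mL they were 59.5% ± 2.93 and 87.7% ± 1.73 (SD, n = 3 each). RCAN3 made up most of the rest, 32.9% ± 5.18 (SD, n = 3) in vehicle without doxycycline and 4.65% ± 0.374 (SD, n = 3) with thapsigargin. The ratio of summed RCAN to summed catalytic subunit mRNA, both per kb, was 0.440 ± 0.0650 in vehicle and 2.81 ± 0.356 in thapsigargin without doxycycline, 0.485 ± 0.0457 and 2.45 ± 0.253 at 10 ng/mL, and 0.484 ± 0.0232 and 1.51 ± 0.200 at 100 ng/mL (SD, n = 3 each). In each thapsigargin library the summed RCAN level was above the summed catalytic level, and in each vehicle library it was below. These shares and ratios are descriptions with no test and follow largely from RCAN1.

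Summed over PPP3CA, PPP3CB and PPP3CC, the catalytic level itself ranged only from 31.9 ± 1.78 CPM per kb in vehicle at 100 ng/mL to 36.3 ± 3.56 in vehicle without doxycycline (SD, n = 3 each), and thapsigargin without doxycycline left it at 33.9 ± 2.18 (SD, n = 3). Within that sum PPP3CB held 43.4% ± 1.96 in vehicle and 34.7% ± 0.313 in thapsigargin without doxycycline, 43.4% ± 1.06 and 37.5% ± 1.53 at 10 ng/mL, and 41.3% ± 1.42 and 40.0% ± 1.26 at 100 ng/mL (SD, n = 3 each). The PPP3CC share was 17.4% ± 2.32 in vehicle and 23.0% ± 1.49 in thapsigargin without doxycycline (SD, n = 3 each). At 10 ng/mL it was 16.7% ± 0.537 and 17.9% ± 2.33, and at 100 ng/mL it was 17.6% ± 1.23 and 15.6% ± 0.105 (SD, n = 3 each). PPP3R1 per catalytic subunit, the regulatory subunit against its partners, was 0.675 ± 0.0592 in vehicle and 0.825 ± 0.0243 in thapsigargin without doxycycline, 0.624 ± 0.0361 and 0.873 ± 0.0333 at 10 ng/mL, and 0.708 ± 0.0271 and 1.01 ± 0.141 at 100 ng/mL (SD, n = 3 each), with the overlapping gene as its limit.

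**Figure D3:**
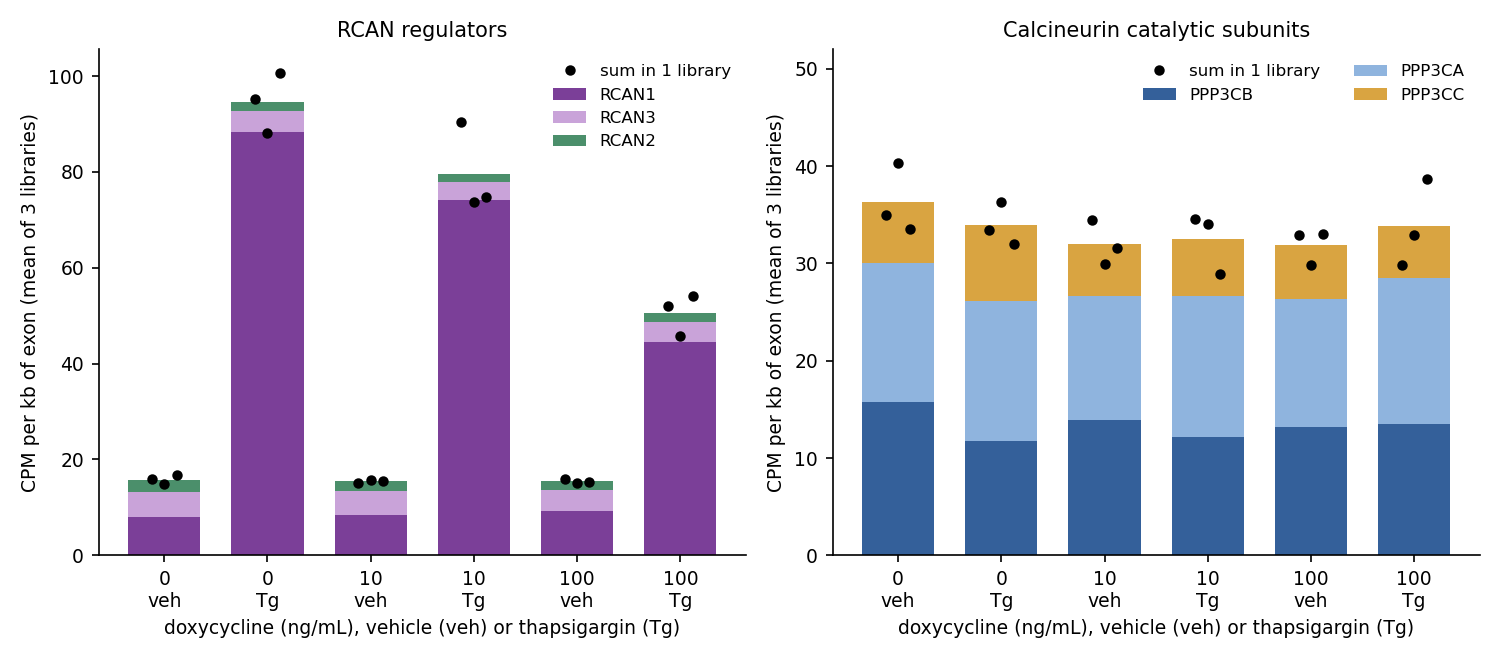
Mean level in CPM per kb of exon, stacked by gene, of the RCAN regulators (left) and the catalytic calcineurin subunits (right) in each group by doxycycline dose (ng/mL) and vehicle (veh) or thapsigargin (Tg), with the sum in each library as a black point. The RCAN sum goes from 15.8 to 94.6 CPM per kb with thapsigargin without doxycycline and reaches 50.7 at 100 ng/mL, while the catalytic sum stays between 31.9 and 36.3 in all 6 groups.

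The next question was whether ERN2 induction alone moved the axis. In vehicle-treated cells 0 of the 10 genes passed the threshold at 10 against 0 ng/mL, at 100 against 0 ng/mL or at 100 against 10 ng/mL, where 0.193%, 8.33% and 2.45% of all genes tested were called. At an unadjusted p under 0.05 the edgeR counts were 1, 1 and 0 of the 10, and DESeq2 also called 0 in each. An unadjusted p under 0.05 was reached by 30.5%, 29.3% and 16.1% of all genes, and DESeq2 called 3.21%, 10.8% and 5.7% of those it tested. The gene behind the first count was NFATC1 (log2 fold change 0.26, adjusted p = 0.162), at 37.1 to 44.8 CPM without doxycycline and 47.1 to 49.0 at 10 ng/mL. Its groups did not overlap, as for 29.8% of all genes. The gene behind the second count was RCAN2 (log2 fold change -0.50, 95% interval -0.90 to -0.09, adjusted p = 0.103), at 8.64 to 9.98 CPM without doxycycline and 5.00 to 7.96 at 100 ng/mL, without overlap, as for 33.1% of all genes. For RCAN1 the log2 fold change at 100 against 0 ng/mL was 0.18, with a 95% interval of -0.10 to 0.46, and for PTGS2 it was 0.01, with an interval of -0.46 to 0.47. Changes of PTGS2 within those bounds are therefore compatible with these data of 3 libraries a group.

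In thapsigargin-treated cells RCAN1 was lower at 100 ng/mL doxycycline than at 0 ng/mL, and it was the 1 of the 10 genes past the threshold, where 10.5% of all genes tested were called. Genes called lower made up 9% of all genes tested. RCAN1 had a log2 fold change of -0.93 (SE 0.129, edgeR adjusted p = 0.000273, lower in 3 of 3 libraries), or 0.526 times the level without doxycycline, with a 95% interval of 0.433 to 0.638. This call held under all 6 other settings of the fit and with each library left out in turn. At 100 against 10 ng/mL RCAN1 was again the 1 gene of 10 called, where 5.55% of all genes were called and 5.32% were called lower, with a log2 fold change of -0.68 (SE 0.146, adjusted p = 0.00894). That second call was lost with RLE size factors (adjusted p = 0.0115) and in a fit that kept the replicate number as a block. It was also lost in 5 of 6 leave-one-out fits, up to 0.0877 without replicate 2 of the thapsigargin libraries at 100 ng/mL. The exception was the fit without replicate 1 of that group (adjusted p = 0.00489).

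At 10 against 0 ng/mL in thapsigargin 0 of the 10 genes were called by edgeR, with 1 at an unadjusted p under 0.05 and 0 by DESeq2, and 0% of all genes tested were called by edgeR, 4.22% had an unadjusted p under 0.05 and DESeq2 called 0.342%. RCAN1 had a log2 fold change of -0.25 there (adjusted p = 0.978). In this comparison same-numbered libraries deviated together, with correlations of 0.343 to 0.467 in the 3 pairs, and a fit that kept the replicate number as a block gave RCAN1 a log2 fold change of -0.26 and an adjusted p of 0.00639, past the threshold, as for 3.89% of all genes. PPP3CC was the gene with an unadjusted p under 0.05 (log2 fold change -0.40, adjusted p = 0.978).

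PTGS2 was lower at 100 than at 0 ng/mL in each thapsigargin library. Its highest library at 100 ng/mL, 22.1 CPM, was below its lowest without doxycycline, 23.7 CPM. RCAN1 was also lower without overlap, as were 23.2% of all genes tested, and 35.6% had no overlap in either direction. PTGS2 missed the threshold (log2 fold change -0.77, 95% interval -1.33 to -0.20, edgeR adjusted p = 0.0532). This value moved with single libraries at 100 ng/mL. Without replicate 3 the log2 fold change was -1.18 and passed (adjusted p = 0.00158), without replicate 2 it was -0.52 (adjusted p = 0.233), and the first was the only one of 6 leave-one-out fits to pass. With all 6 groups in 1 fit it was -0.82 and passed (adjusted p = 0.00943). PPP3CC had a log2 fold change of -0.49 (adjusted p = 0.0602), and PPP3R1 one of 0.36 (adjusted p = 0.191) that became 0.56 and passed without replicate 1 at 100 ng/mL (adjusted p = 0.00366) and became 0.21 without replicate 3 (adjusted p = 0.521). RCAN2, RCAN3, PPP3CA, PPP3CB, NFATC1 and NFATC3 had log2 fold changes of 0.01 to 0.26, and those of RCAN2, RCAN3 and NFATC1 took the opposite sign with library totals alone as the scaling. At 100 against 10 ng/mL, where 30.8% of all genes had groups without overlap, those of RCAN1 did not overlap and those of PTGS2 did (log2 fold change -0.63, adjusted p = 0.134).

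**Figure D4:**
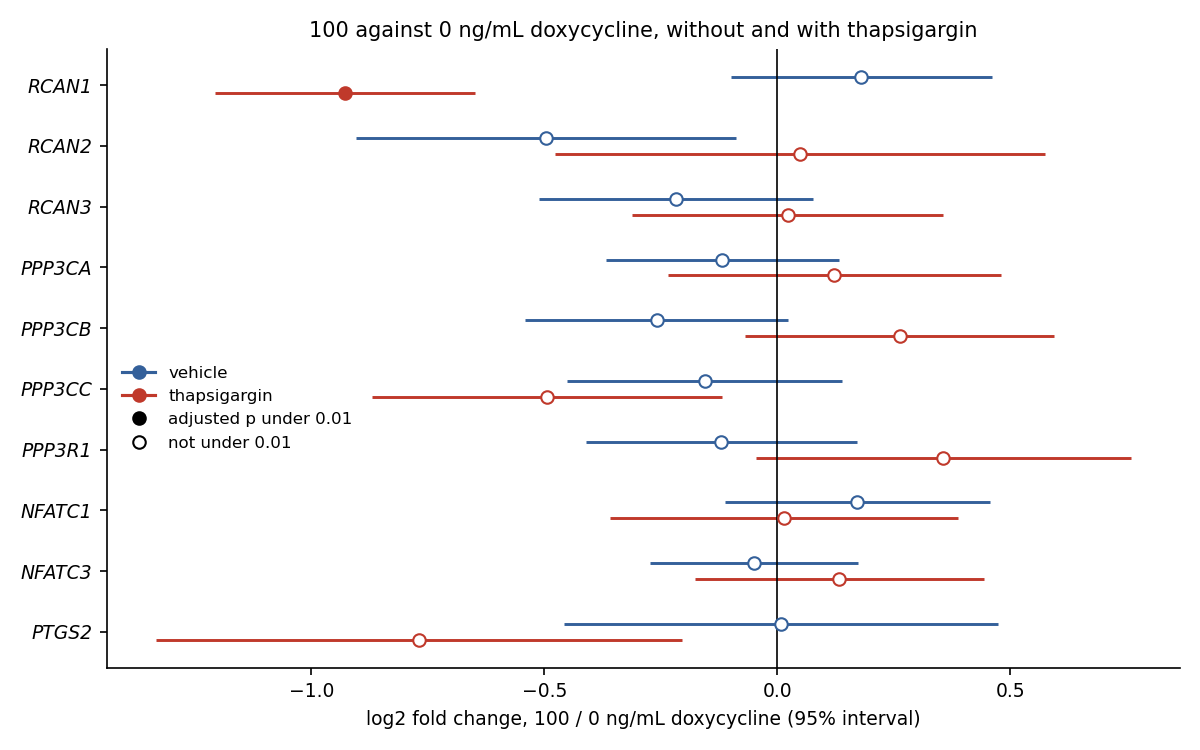
Log2 fold change of 100 over 0 ng/mL doxycycline (x axis, with 95% intervals) for each of the 10 genes in vehicle (blue) and in thapsigargin (red), 3 libraries a group; filled points have an edgeR adjusted p under 0.01. RCAN1 in thapsigargin, at -0.93, is the only filled point, and PTGS2 in thapsigargin lies at -0.77 with an interval that ends below 0.

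Whether the thapsigargin response itself differed with ERN2 was tested as an interaction over 12 libraries. An interaction is the difference of the 2 log2 fold changes within 1 fit of those 12 libraries, with its own scaling. It therefore need not equal the difference of the values from separate fits above. At 100 against 0 ng/mL RCAN1 had an interaction of -1.05 (95% interval -1.39 to -0.71, unadjusted p = 1.1e-05), and its edgeR adjusted p of 0.0101 lay just above the threshold. So 0 of the 10 genes were called by edgeR, with 2 at an unadjusted p under 0.05, where 0.0406% of all genes tested were called and 24.7% had such a p. DESeq2 called RCAN1 (interaction -1.12, adjusted p = 9.43e-07) and 2.88% of all genes. RCAN1 was also called with library totals alone (-1.23, adjusted p = 0.00345, 0.135% of all genes). With no filter on low counts it was called (-1.09, adjusted p = 0.00239), as were 0.416% of all genes. A fit of all 6 groups called it as well (-1.17, adjusted p = 0.00164), with 0.233% of all genes. RLE size factors and the replicate number as a block called no gene of the axis. In leave-one-out fits a gene of the axis was called only without replicate 1 of the thapsigargin libraries at 100 ng/mL. Over all alternatives for RCAN1 the adjusted p ran from 9.43e-07 to 0.0461. With library totals alone the median interaction of all genes moved from 0.04 to -0.14, so relative to that median RCAN1 was at a similar distance in both scalings. The other gene with an unadjusted p under 0.05 was PPP3CB, with an interaction of 0.58 (95% interval 0.15 to 1.0, adjusted p = 0.109). In the separate fits its log2 fold changes were -0.41 without doxycycline and 0.08 at 100 ng/mL.

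PTGS2 had an interaction of -0.72 at 100 ng/mL (95% interval -1.52 to 0.08, adjusted p = 0.245), an interval that holds both 0 and the value of RCAN1. PPP3R1 had one of 0.53 (adjusted p = 0.206) and RCAN2 one of 0.59 (adjusted p = 0.259). At 10 ng/mL 0 of the 10 genes were called by edgeR or DESeq2, with 0 at an unadjusted p under 0.05, where 0% and 0.00968% of all genes tested were called and 4.47% had such a p. There the interaction of RCAN1 was -0.32 (95% interval -0.68 to 0.04, adjusted p = 0.779) and that of PTGS2 0.06 (95% interval -0.47 to 0.58, adjusted p = 0.946). Values of ER stress genes are given beside these. The log2 fold change of DDIT3, a transcription factor of the stress response, was 3.96, 3.56 and 2.56 at 0, 10 and 100 ng/mL, and that of HSPA5, the ER chaperone BiP, was 2.87, 2.20 and 1.20. At 100 against 0 ng/mL both were higher in vehicle (DDIT3 0.67, adjusted p = 0.0092, and HSPA5 0.84, adjusted p = 8.68e-05), where RCAN1 was not called (0.18), and both were lower in thapsigargin (-0.71, adjusted p = 0.00506, and -0.80, adjusted p = 0.00688), as RCAN1 was (-0.93). Of 6 leave-one-out fits each, DDIT3 passed in 1 in vehicle and 1 in thapsigargin (edgeR adjusted p up to 0.0482 and 0.0457). HSPA5 passed in 6 and 3 (up to 0.00107 and 0.0263). The part of DDIT3 and HSPA5 in the RCAN1 values was not tested.

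Other genes of the pathway were taken from lists of known members, also written with earlier results of these data known, so their counts are descriptions. CALM2 and CALM3 encode calmodulin, the calcium sensor that activates calcineurin, and both fell with thapsigargin without doxycycline, with log2 fold changes of -1.03 (adjusted p = 0.000154) and -0.63 (adjusted p = 0.000532). PPIA, cyclophilin A, through which cyclosporin inhibits calcineurin, fell as well (log2 fold change -0.74, adjusted p = 0.000348). So 3 of the 7 calmodulin and partner genes tested were lower and 0 higher, where 4.74% of all genes were called lower and 11.2% in either direction, and the list's median was -0.36 beside -0.01 for all genes tested. DESeq2 called 4 of the 7 (CALM2, CALM3, FKBP1A and PPIA), where it called 16.4% of all genes it tested. At 10 and 100 ng/mL 0 of the 7 were called by edgeR, where 1.45% and 0.201% of all genes were, with 3 and 1 at an unadjusted p under 0.05 (24.7% and 27% of all genes) and 2 (CALM3 and PPIA) and 0 called by DESeq2, and the medians were -0.18 and 0.02.

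At 100 against 0 ng/mL in thapsigargin, 3 of these 7 genes were higher and 0 lower, where 1.53% of all genes were called higher. They were CALM2 (log2 fold change 1.14, adjusted p = 0.00226), FKBP1A, the FK506-binding protein FKBP12 (0.74, adjusted p = 0.00205), and PPIA (0.61, adjusted p = 0.00359). CALM2 was at 104 ± 13.9 CPM without doxycycline and 220 ± 62.9 CPM at 100 ng/mL (SD, n = 3 each), beside 215 ± 28.9 CPM in vehicle without doxycycline (SD, n = 3). At 100 against 10 ng/mL CALM2 was the 1 gene of the 7 called, where 0.235% of all genes were called higher (log2 fold change 0.97, adjusted p = 0.00754). In leave-one-out fits at 100 against 0 ng/mL, CALM2 and FKBP1A lost the call without replicate 1 or 3 at 0 ng/mL or replicate 2 at 100 ng/mL (adjusted p up to 0.0177 and 0.0188), and PPIA kept it only without replicate 1 at 100 ng/mL (up to 0.0266 in the others). At 100 against 10 ng/mL CALM2 kept it only without replicate 1 at 100 ng/mL (up to 0.0581 in the others). These comparisons share thapsigargin libraries with those of thapsigargin against vehicle, so the values of a gene in them are not independent. In the interaction at 100 ng/mL 0 of the 7 were called by edgeR (0.0406% of all genes), and the list's median was 0.53. There 5 of the 7 had an unadjusted p under 0.05 (24.7% of all genes), and DESeq2 called CALM2 and PPIA (2.88%).

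Of 8 tested genes known to be induced by calcium or NFAT, 5 were higher with thapsigargin without doxycycline and 0 lower, where 6.45% of all genes were called higher, with a list median of 1.19. They were VEGFA, an angiogenic growth factor (log2 fold change 1.54, adjusted p = 1.39e-06), the orphan nuclear receptor genes NR4A1 (1.37, adjusted p = 4.37e-05), NR4A2 (1.52, adjusted p = 2.85e-05) and NR4A3 (1.02, adjusted p = 0.00163), and the chemokine gene CXCL8 (1.92, adjusted p = 0.00349), which was at only 2.86 ± 0.618 CPM (SD, n = 3) with the drug. At 10 ng/mL NR4A2 (1.35, adjusted p = 0.00163) and VEGFA (1.27, adjusted p = 0.000715) were called, 2 of the 8 where 1.16% of all genes were called higher. Leaving out 1 library ended the call of NR4A3 without doxycycline (replicate 1 of vehicle, adjusted p = 0.0106), of CXCL8 there (replicate 1 or 2 of thapsigargin, 0.0148 and 0.0117), of NR4A2 at 10 ng/mL (replicate 2 of vehicle or of thapsigargin, 0.0201 and 0.0124) and of VEGFA at 10 ng/mL (replicate 2 of vehicle, 0.0151). At 100 ng/mL 0 of the 8 were called by edgeR, with 4 at an unadjusted p under 0.05 and 2 called by DESeq2 (NR4A2 and VEGFA), beside 27% and 5.64% of all genes, and by edgeR VEGFA (0.93, adjusted p = 0.01) and NR4A2 (1.12, adjusted p = 0.0131) lay just above the threshold. The list's medians were 1.19, 0.90 and 0.43 in order of dose, each from a separate fit. In the interaction at 100 ng/mL 0 of the 8 were called by edgeR, where 0.0406% of all genes were, and the list's median was -0.42. Of the 8, 2 had an unadjusted p under 0.05 there (24.7% of all genes), and DESeq2 called VEGFA alone (2.88% of all genes). In the interaction at 10 ng/mL edgeR and DESeq2 called 0 of the 8, with 1 at an unadjusted p under 0.05 (4.47% of all genes). At 100 against 0 ng/mL in vehicle NR4A1 was higher (log2 fold change 0.75, adjusted p = 0.00326), a call lost without any 1 of the 3 libraries at 0 ng/mL.

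In the remaining lists 0 genes were called in any of the 11 comparisons by edgeR. DESeq2 called MEF2A, CRTC3 and PTGES3 for thapsigargin without doxycycline, where it called 16.4% of all genes it tested. It called MEF2A for thapsigargin at 100 ng/mL (5.64% of all genes) and XPO1 for 10 against 0 ng/mL in vehicle (3.21%). For 100 against 0 ng/mL in thapsigargin it called GSK3A and PTGES3 (16.5%). For thapsigargin without doxycycline these lists held 4 other NFAT factors (median log2 fold change 0.09, 1 at an unadjusted p under 0.05), 10 kinases, scaffolds and export factors of NFAT (median -0.0031, 3 at that p), 7 other calcineurin substrates, of the MEF2, CRTC and TFEB kinds (median 0.38, 7 at that p, all 7 above 0), and 7 tested genes of prostaglandin synthesis other than PTGS2 (median -0.33, 1 at that p). PTGS1, the constitutive cyclooxygenase gene, was among 5 genes of the last list that did not pass the filter on low counts there. An unadjusted p under 0.05 was reached by 35.9% of all genes tested in that comparison.

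Across the 18 libraries the pattern of RCAN1 was most like that of DDIT3 (Pearson r = 0.990 of log2 CPM), followed by STOX2 (0.985), PTGS2 (0.985), STC2 (0.985) and ZNF165 (0.984), out of 15023 genes. For PTGS2 the order was ZNF165 (0.987), RCAN1 (0.985), STC2 (0.979), GZF1 (0.978) and NR4A2 (0.976). These are descriptions without a p, over libraries that share groups and treatment, and the genes named have in common that each thapsigargin library was above each vehicle library. In thapsigargin STC2, which encodes stanniocalcin-2, was at 186 ± 36.3, 178 ± 35.3 and 91.3 ± 10.6 CPM at 0, 10 and 100 ng/mL, and ZNF165 was at 34.9 ± 3.75, 27.3 ± 5.57 and 17.2 ± 3.31 CPM (SD, n = 3 each). Their means were lowest at 100 ng/mL, as were those of RCAN1 at 452 ± 33.6, 379 ± 42.6 and 228 ± 23.1 CPM and PTGS2 at 26.4 ± 3.31, 24.0 ± 4.31 and 14.8 ± 6.56 CPM (SD, n = 3 each).

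**Figure D5:**
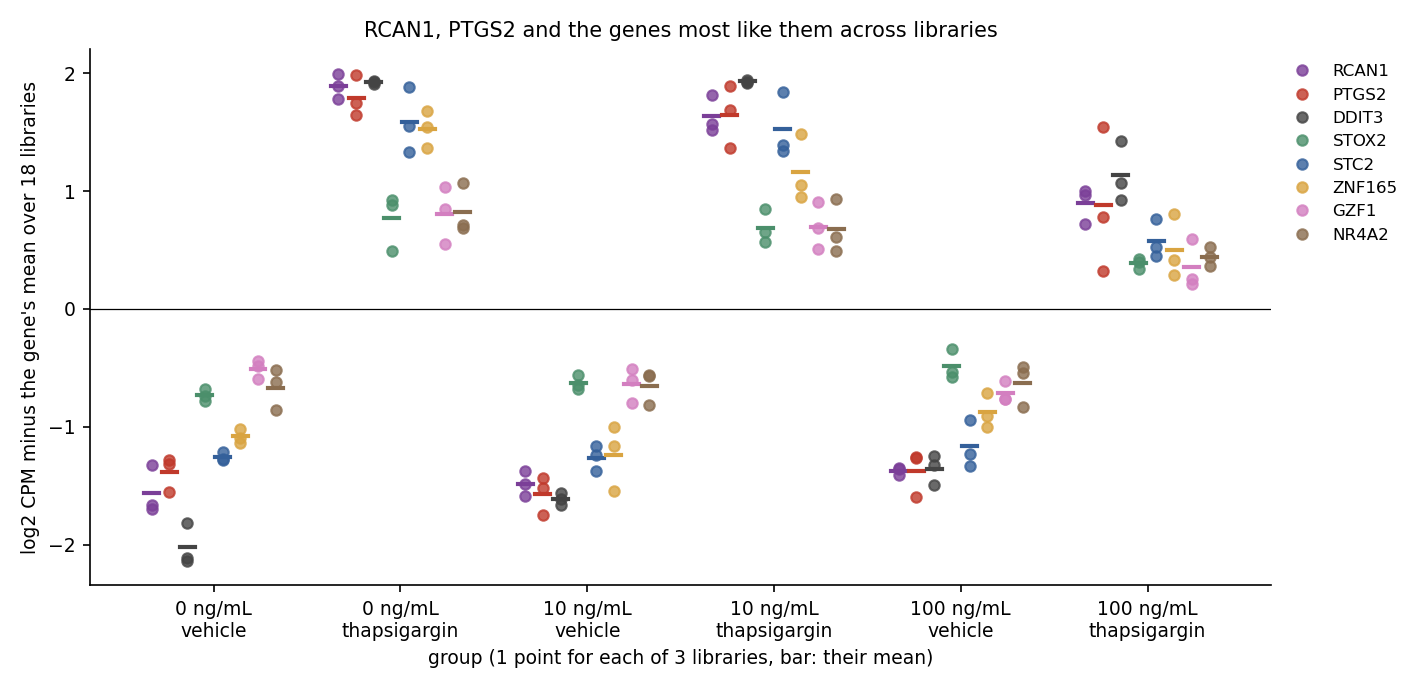
Log2 CPM of RCAN1, PTGS2 and the genes most like them, minus each gene's mean over the 18 libraries, with 1 point for each of 3 libraries in each of the 6 groups and a bar for their mean. All 8 genes lie above 0 in each thapsigargin library and below 0 in each vehicle library, and replicate 3 of PTGS2 at 100 ng/mL with thapsigargin stands above the other libraries of its group.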

How the data were processed

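RNA-Seq of 18 libraries of HEK293doxERN2 cells was used, 3 per group. The authors prepared stranded mRNA libraries, sequenced single-end reads over 75 cycles and aligned them with STAR in the VIPER pipeline. They deposited raw read counts per gene symbol, unnormalized and unfiltered, and the submitters' processing notes name the build hg38. The strand setting and annotation of the counting are not given in the sources used here. Of the 25435 rows, 28 held a date in place of a symbol, and totals per library were 14876416 to 24652240 reads.

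Each comparison was fitted on the whole table with edgeR 4.0.16 in R 4.3.3 (quasi-likelihood test, TMM, filterByExpr at a minimum count of 10, each on the libraries it compares). P-values were adjusted by Benjamini-Hochberg across the genes that passed the filter, and calls were made under 0.01. The 11 comparisons were thapsigargin against vehicle at 3 doses, pairs of doses within vehicle and within thapsigargin, and 2 interactions. Standard errors (SE) were derived from each log2 fold change and its F statistic. The labels name replicates but no separate cultures, so p-values measure the spread between these libraries, which may be technical. An exact permutation of 3 against 3 libraries cannot give a two-sided p below 0.1. Tested on simulated data, edgeR recovered 83.3% of 198 genes changed by known folds among 14330 for 100 against 0 ng/mL in vehicle, and 9.60% of 198 among 14632 for the interaction at 100 ng/mL. DESeq2 recovered 84% and 39% of 200 changed genes in the same 2 simulations. Of the calls made, 1.20% and 0% were false with edgeR, and 2.89% and 6.02% with DESeq2.

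Alternatives were DESeq2 1.42.0, RLE size factors, library totals alone, no filter on low counts, a joint fit of all groups, a block for replicate number, a looser adjusted p of 0.05 and leaving out single libraries. Numbers were taken to pair libraries where each of the 3 correlations of deviations was above 0.1. This held in 1 comparison, 10 against 0 ng/mL in thapsigargin (0.343 to 0.467), and a lower correlation in another does not exclude pairing. Named genes were all 10 of the axis, each list gene called in any comparison, ERN2, HSPA5 and DDIT3 as checks, and the 5 genes most correlated with RCAN1 or PTGS2 (log2 CPM, prior count of 2). The genes and lists were chosen with earlier results of these data known, and 1 gene of a list is not reported here. Positions and exon lengths come from GENCODE 29 (GRCh38) and promoters from RefSeq (GRCh38.p14).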

Additional observations from a re-analysis of the deposited data

Results flagged for a closer look

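One value outside the axis differed between doses. The thapsigargin response of HSPA5, used as a check of the treatment, was smaller at 100 than at 0 ng/mL doxycycline, with an interaction of -1.58 on the log2 scale (adjusted p = 0.00897, edgeR), and the test of that difference passed in 5 of 6 other settings and in 4 of 12 leave-one-out fits (interaction from -1.80 to -1.38). The replicate number as a block gave an adjusted p of 0.015.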

How the results depend on the processing

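The numbers of axis genes past the threshold changed under these settings. With the replicate number as a block they were 5 of 10 for thapsigargin at 10 ng/mL doxycycline, where 24.8% of all genes were called. RCAN1, PTGS2, PPP3R1 and NFATC3 were higher and RCAN3 lower. For thapsigargin at 100 ng/mL the block gave 1, where 0.0277% of all genes were called, and PTGS2 was not called (adjusted p = 0.0307). In thapsigargin it gave 1 for 10 against 0 ng/mL (3.89% of all genes) and 0 for 100 against 10 ng/mL (2.65%). RCAN1 was not called in the latter (adjusted p = 0.0362). All 3 pairs correlated above 0.1 only in 10 against 0 ng/mL in thapsigargin, and elsewhere at most 2 of 3 did. For thapsigargin against vehicle the correlations ran from -0.033 to 0.499 at 10 ng/mL and from 0.083 to 0.272 without doxycycline. Whether numbers pair libraries there was not settled. The block called PPP3CB lower with thapsigargin without doxycycline (adjusted p = 0.0017), where 24.8% of all genes were called. RLE size factors gave 0 for 100 against 10 ng/mL in thapsigargin, where 5.02% of all genes were called. A fit of all 6 groups gave 2 for 100 against 0 ng/mL in thapsigargin, with 17.6% of all genes called. For the interaction at 100 ng/mL the count was 1 under an adjusted p of 0.05, DESeq2, library totals alone, no filter and all 6 groups. Those settings called 1.01%, 2.88%, 0.135%, 0.416% and 0.233% of all genes, in that order. Leaving out single libraries, the counts ran from 1 to 3 for thapsigargin at 100 ng/mL, 1 to 2 for 100 against 0 ng/mL in thapsigargin, 0 to 2 for 100 against 10 ng/mL in thapsigargin and 0 to 1 for the interaction at 100 ng/mL. Over all genes the calls in those fits ran from 4 to 2568, 763 to 3950, 42 to 2712 and 2 to 1286. The cause was not tested. With library totals alone as the scaling, the mean CPM of each gene in each group stayed within 1 SD of its main value. Leaving out 1 of 3 libraries cannot move a mean by 1 SD, so those alternatives could not test the levels.

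Of the 110 fold changes of axis genes, 25 changed sign when a library was left out and 5 under another setting, none of them called. With library totals alone these were NFATC1 for thapsigargin at 100 ng/mL (-0.054), NFATC3 for 100 against 0 ng/mL in vehicle (0.0023), and for 100 against 0 ng/mL in thapsigargin RCAN2 (-0.024), RCAN3 (-0.051) and NFATC1 (-0.052). With all 6 groups in the fit they were NFATC1 for thapsigargin at 100 ng/mL (-0.035), and for 100 against 0 ng/mL in thapsigargin RCAN2 (-0.011), RCAN3 (-0.041) and NFATC1 (-0.049). Leaving out single libraries, the values that changed sign ran as follows. For thapsigargin without doxycycline they were PPP3CA from -0.050 to 0.11. For thapsigargin at 100 ng/mL doxycycline they were RCAN3 from -0.075 to 0.052, RCAN2 from -0.054 to 0.28, PPP3CB from -0.030 to 0.13, PPP3CC from -0.16 to 0.040 and NFATC1 from -0.13 to 0.12. For 10 against 0 ng/mL in vehicle they were RCAN3 from -0.17 to 0.017. For 100 against 0 ng/mL in vehicle they were PPP3R1 from -0.21 to 0.031 and PTGS2 from -0.076 to 0.13. For 100 against 10 ng/mL in vehicle they were RCAN2 from -0.30 to 0.038, PPP3CB from -0.11 to 0.030 and PPP3CC from -0.0046 to 0.18. For 10 against 0 ng/mL in thapsigargin they were RCAN2 from -0.28 to 0.032, NFATC3 from -0.13 to 0.048, PPP3CA from -0.061 to 0.088, PPP3R1 from -0.041 to 0.095 and NFATC1 from -0.18 to 0.065. For 100 against 0 ng/mL in thapsigargin they were NFATC1 from -0.099 to 0.12, RCAN2 from -0.15 to 0.19 and RCAN3 from -0.021 to 0.087. For 100 against 10 ng/mL in thapsigargin they were PPP3CC from -0.25 to 0.056, NFATC1 from -0.016 to 0.19 and PPP3CA from -0.0043 to 0.25. For the interaction of thapsigargin with 10 ng/mL doxycycline they were PTGS2 from -0.070 to 0.18 and RCAN3 from -0.34 to 0.012.

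Read counts were low for PTGS2 in vehicle, at 43 to 60, and the part of counting in its precision was not tested. Calls over all genes moved with single libraries, from 4 to 2568 for thapsigargin at 100 ng/mL.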
